A study of Mus musculus with 30 samples.

Results

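The 10 livers described here came from mice that lost Cebpa in hepatocytes as adults, 5 after 10 days and 5 after 10 weeks of tamoxifen, and they are 10 of the 30 libraries of the series. They were taken as all libraries of the inducible knockout strain, Cebpa ΔHep,ERT2, at both times, by their sample labels. In this strain a tamoxifen-activated Cre recombinase driven by the Albumin promoter (Albumin-ERT2-cre) removes the floxed Cebpa gene from hepatocytes and leaves it in the other cells of the liver. The 10-week knockout mice (T10W) ate a diet high in fat, cholesterol and fructose (HFCFD) for 22 weeks in all, 12 weeks before and 10 weeks during tamoxifen, and the 10-day knockout mice (T10D) carry the label of 8 weeks of HFCFD with tamoxifen for 10 days. All were male mice on a C57BL/6N background. Their controls, 5 at each time, were Cebpa fl/fl mice without Cre that received the same diet and the same tamoxifen. Age is not given for each group. The series design speaks of several batches of mice and no label says which samples each batch holds, so time without Cebpa, time on tamoxifen, time on HFCFD, age and batch cannot be told apart between the 2 knockout groups. The change between the 2 control groups, which differ in all of these except Cebpa loss, is therefore given beside the knockout change.

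C/EBPα, the protein that Cebpa encodes, is a transcription factor that keeps hepatocytes in their mature state and drives genes of glucose, lipid and plasma protein metabolism. Osteopontin, the secreted glycoprotein encoded by Spp1, is made in a healthy liver mainly by bile duct cells and binds integrins and CD44 on other cells. In fatty liver disease with fibrosis, stellate cells turn into myofibroblasts that lay down collagens, and part of the resident macrophages, the Kupffer cells, are replaced by macrophages from blood monocytes. Whole liver RNA was sequenced, so a lower value can mean fewer cells of a type or less RNA in each cell, and these cannot be told apart.

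The libraries held 8766880 to 9698927 counts in the 10-day knockouts and 8047010 to 9058366 counts in the 10-week knockouts. The number of genes with a count was 15674 to 16904 against 17003 to 17342, and the mitochondrial share was 4.98% to 6.03% against 5.53% to 6.29%. Hepatocyte transcripts were abundant in every liver, with Alb, the gene of serum albumin, at 39930.2 to 85021 counts per 1000000 counts (CPM) at 10 days and 34109 to 41080.3 CPM at 10 weeks. The trimmed mean of M values (TMM) factor, which rescales each library to the bulk of its genes, was 0.827 to 1.2 at 10 days and 1.19 to 1.27 at 10 weeks, so it differed with the group. All CPM values here are TMM-scaled and are compared between libraries for 1 gene, not between genes, since they are not corrected for gene length. The 10-week knockouts were more alike, with correlations of log2 CPM between mice of 0.973 to 0.984, than the 10-day knockouts, at 0.957 to 0.980, and mice of different times correlated at 0.940 to 0.965. In a principal component analysis of the 20 inducible libraries the first component took 46.6% of the variance, with the 10-week knockouts at 47.7 to 59.6 and the controls at -26.5 to -53.1. The 10-day knockouts spread between these, from 2.99 in mouse 4 and 17.3 in mouse 5 to 49.3 in mouse 2, so that mouse 2 lay among the 10-week knockouts on this axis. The second component, 13% of the variance, separated the 2 times in both genotypes. The 10-day knockouts were at -26.2 to -31.1 and the 10-week knockouts at 17.5 to 30.4. The 10-day controls were at -9.70 to -21.5 and the 10-week controls at 13.96 to 27.5.

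**Figure D1:**
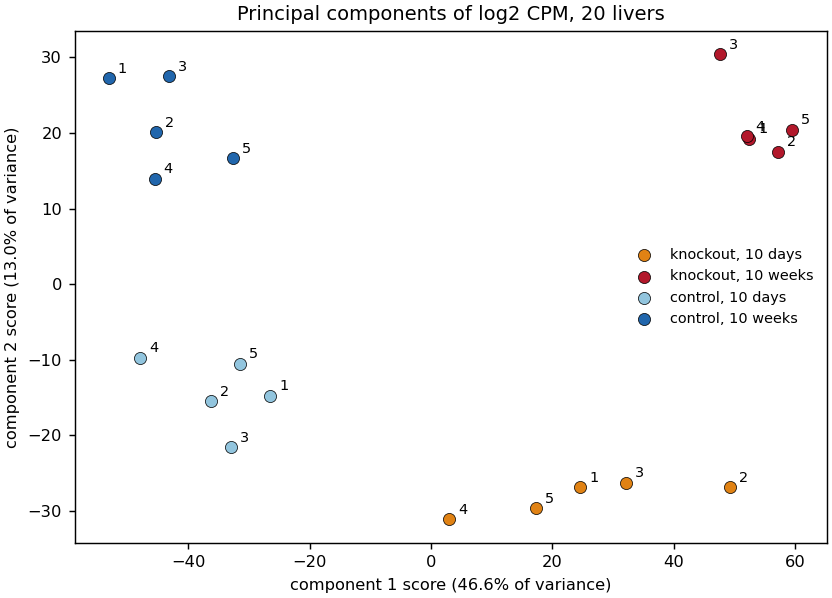
Principal components of log2 CPM in the 20 livers of the inducible experiments, 1 point per mouse with its replicate number, with the share of variance of each component on its axis. The 5 knockouts at 10 days spread along the first component from 2.99 to 49.3, between the controls and the 5 knockouts at 10 weeks. The second component separates the 2 times in the knockouts and in the controls.

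The deleted gene was low in both knockout groups. Cebpa mRNA, from a gene at 7:35119293-35121928 on the plus strand (GRCm38), was at 16.4, 26.6, 23.3, 14.1 and 12.1 CPM in the 10-day knockouts of mice 1 to 5, the order used for all values of single mice, and at 22.4, 25.7, 24.5, 20.2 and 22.3 CPM in the 10-week knockouts. Mice 2 and 3 at 10 days held as much as the 10-week mice and the other 3 held less, so the groups overlapped. The means, 18.5 ± 6.21 and 23 ± 2.15 CPM (SD, n = 5 in each, as for all means here), were 11.8% and 18.5% of the matched controls. The difference, 0.31 on the log2 scale with a standard error (SE) of 0.17, was not called (edgeR quasi-likelihood test, Benjamini-Hochberg adjusted p = 0.210; two-sided exact permutation test p = 0.151), but without 10-day mouse 2 it was 0.52 with an edgeR adjusted p of 0.0267.

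Spp1 rose further between the 2 times. In the 10-day knockouts Spp1 mRNA was at 355, 366, 296, 149.5 and 161 CPM, and in the 10-week knockouts it was at 760.3, 767, 1061, 748 and 998 CPM. Every 10-week value lay above every 10-day value, and 10-day mice 4 and 5, which also had the lowest Cebpa, were the lowest. The mean rose 3.26-fold, from 266 ± 104 to 867 ± 150.3 CPM, a log2 change of 1.71 ± 0.21 (edgeR adjusted p = 1.3e-05), with the SE after ± as for all log2 changes, and the two-sided exact permutation test gave p = 0.00794, the smallest that arrangements of 10 mice can give. In the controls Spp1 was at 45 ± 7.81 CPM at 10 days and 50.2 ± 6.93 CPM at 10 weeks, and the difference between the genotypes' changes was 1.55 (edgeR interaction test, adjusted p = 0.00408). The 250 bases before the Spp1 start in RefSeq (GRCm38.p6, chr5:104434861-104435110, plus strand) are shown because Spp1 is the gene the study centres on. Both strands were searched for CCAAT and for the core TTNCNNAA of C/EBP sites. In this window CCAAT was found 1 time, as ATTGG (capitals), and the core was not found.
Spp1: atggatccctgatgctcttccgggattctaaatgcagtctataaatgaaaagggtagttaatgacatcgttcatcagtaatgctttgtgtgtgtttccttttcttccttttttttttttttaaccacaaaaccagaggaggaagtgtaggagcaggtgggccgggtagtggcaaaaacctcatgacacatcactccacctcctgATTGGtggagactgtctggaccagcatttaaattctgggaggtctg
RefSeq holds a second Spp1 start with a window at chr5:104435942-104436191, in which the core was found 2 times, 156 and 15 bases before the start, and CCAAT was not found. CCAAT stood in 33.8% and the core in 36.8% of all 32851 promoter windows of this length. The presence of these letters is a description of the window, not a binding site. The paper's reporter and ChIP assays place the C/EBP element through which it proposes Spp1 is repressed, CEBPRE1, further upstream than these windows.

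A gene was called at an edgeR adjusted p under 0.05 with more than a 2-fold change. Of 12900 genes tested, 818 (6.34%) were called between the knockout groups, 642 (4.98%) higher at 10 weeks and 176 (1.36%) lower. In the controls, 144 genes (1.12%) were called higher and 214 (1.66%) lower, and at the adjusted p alone 5.09% were higher and 4.13% lower. Of the 642 genes that rose in the knockouts, 72 also rose in the controls, which is 11.2% of the knockout list and 50% of the control list, and 17 fell in them. Of the 176 that fell, 43 also fell in the controls, which is 24.4% of the knockout list and 20.1% of the control list. The median log2 change over all genes was 0.01 in the knockouts and -0.01 in the controls. When libraries were scaled by their total counts alone, the knockout median was 0.26, 991 genes were called higher and 89 lower, and the share of called genes that were higher went from 78.5% to 91.8%. The knockout change differed from the control change for 488 genes (3.78%), 431 (3.34%) in the higher direction and 57 (0.442%) in the lower direction. At the adjusted p alone 12.4% of all genes were higher and 13% lower in the knockouts. For the gene lists below, these shares of all genes are the yardstick for each count of members.

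Most markers of bile duct and progenitor cells rose. Of 24 genes listed, 23 were tested and 19 rose, where 4.98% of all genes did. The median log2 change was 2.02 against -0.27 in the controls. In 19 of the tested genes every 10-week value lay above every 10-day value, where 8.87% of all genes showed that (Pkhd1 is among these and Gabrp, which rose, is not). Their summed level was 259 to 490.3 CPM at 10 days and 1026 to 1411 CPM at 10 weeks with Spp1, which made up most of it, and 109.6 to 133 and 259.7 to 350 CPM without Spp1. The genotypes' changes differed, in the higher direction, for 12 of the 23, where 3.34% of all genes did. Elf3, Slc4a2 and Pkhd1 were among those not called, and Pkhd1, a membrane protein of primary cilia in bile duct cells, had a log2 change of 1.0 ± 0.11 (edgeR adjusted p = 3.5e-06), just under 2-fold.

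Krt19, a keratin of bile duct cells, was at 2.13, 1.83, 3.04, 3.76 and 3.61 CPM at 10 days and at 9.05, 9.46, 16.9, 9.15 and 13.3 CPM at 10 weeks. Krt7, another duct keratin, was at 1.32, 1.14, 1.17, 1.04 and 1.14 CPM and then at 4.53, 5.08, 10.1, 3.84 and 8.41 CPM. For both keratins 10-week mice 3 and 5 were the highest and the groups were well apart. The log2 changes were 2.02 ± 0.34 (edgeR adjusted p = 2.4e-04) and 2.45 ± 0.33 (edgeR adjusted p = 3.1e-05), and in the controls Krt19 went from 4.14 ± 2.14 to 1.77 ± 0.736 CPM, with a log2 change of -1.21 (edgeR adjusted p = 0.0557). Epcam, an adhesion molecule of duct and progenitor cells, rose 6.01-fold, from 4.87, 3.32, 2.93, 2.33 and 2.37 CPM to 15.7, 13.9, 21.6, 16.7 and 27.1 CPM, and its highest 10-day value, in mouse 1, was far under its lowest 10-week value. Epcam was at 0.532 ± 0.168 to 0.894 ± 0.295 CPM in the 10-day and 10-week controls. Among the others, Cftr, the duct chloride channel, rose from 0.858 ± 0.520 to 5.10 ± 1.45 CPM, Muc1, an apical mucin, from 1.71 ± 0.777 to 10.6 ± 1.47 CPM, and Prom1, a marker of progenitor cells, from 3.10 ± 1.12 to 14.2 ± 1.58 CPM. Sox9, a transcription factor of ducts and progenitors, rose less, from 4.12 ± 0.978 to 9.18 ± 2.15 CPM (log2 1.16 ± 0.25, edgeR adjusted p = 0.00215).

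**Figure D2:**
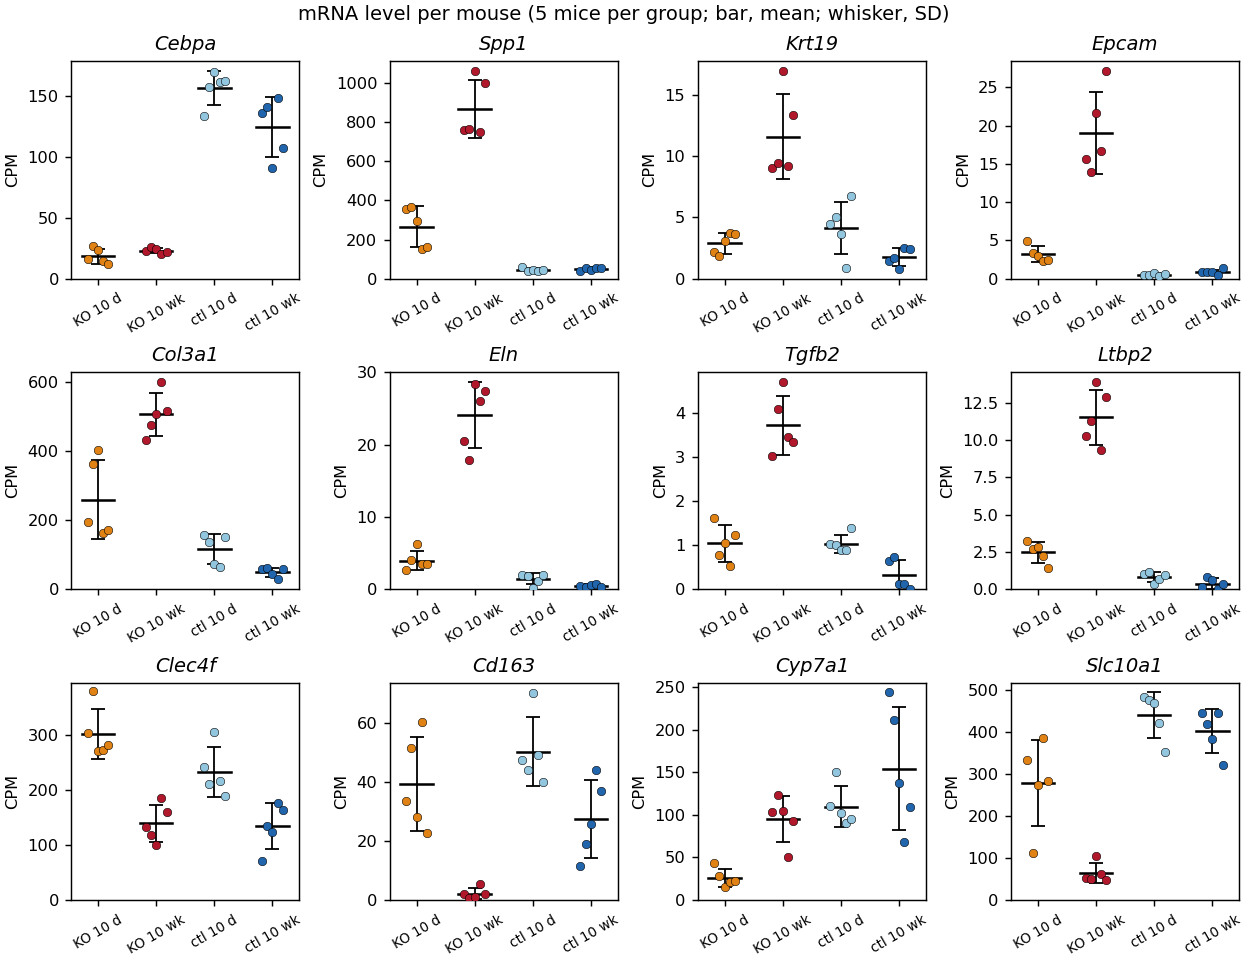
TMM-scaled CPM (vertical axis, linear, from 0) of 12 genes in each mouse of the 4 inducible groups, 5 points per group with a bar for the mean. Spp1, Krt19, Epcam, Eln, Tgfb2 and Ltbp2 are higher in every knockout at 10 weeks than in any at 10 days, Cd163, Clec4f and Slc10a1 are lower, and Cebpa overlaps.

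Part of the extracellular matrix genes rose in the knockouts and a few fell in the controls. Among 20 collagen chains 6 rose, Col4a3, Col4a4, Col4a5, Col6a3, Col8a1 and Col15a1, where 4.98% of all genes did. At the adjusted p alone 16 were higher, where 12.4% of all genes were. The median log2 change of the chains was 0.88 in the knockouts and -0.49 in the controls. The genotypes' changes differed for 14 of the 20, all in the higher direction, where 3.34% of all genes did. In the controls 4 chains fell, where 1.66% of all genes did. The summed level of the chains was 1549 to 2347 CPM at 10 days and 2255 to 2807 CPM at 10 weeks in the knockouts, and 1156 to 1541 and 1042 to 1435 CPM in the controls. The number that rose was 10 without 10-day mouse 2 and 15 under total-count scaling. Col1a1, a chain of type I collagen, the main fibre of scar tissue, was at 65.2, 103, 163, 71.5 and 48.4 CPM and then at 142, 179, 172, 201 and 157 CPM. Mouse 3 at 10 days overlapped with the 10-week range and the other 4 did not. Its log2 change of 0.92 ± 0.32 (edgeR adjusted p = 0.0424) was under 2-fold and the adjusted p rose above 0.05 when any of 7 mice was left out (10-day mice 1, 4 and 5, and 10-week mice 2, 3, 4 and 5). In the controls Col1a1 went from 36.9 ± 17.1 to 15.1 ± 6.59 CPM (log2 -1.29, edgeR adjusted p = 0.0261), and the genotypes' changes differed by 2.20 (edgeR adjusted p = 0.00919). Col1a2, its partner chain, was at 86.3, 125, 205, 92 and 69.5 CPM and then at 193, 216, 256, 262 and 207 CPM (log2 0.97 ± 0.28, edgeR adjusted p = 0.0147). Col3a1, the fibre collagen that accompanies them, was at 194, 363, 405, 164 and 171 CPM and then at 432, 475, 508, 601 and 517 CPM. For Col3a1 no values overlapped, although 10-day mice 2 and 3 came close, and the log2 change was 0.97 ± 0.27 (edgeR adjusted p = 0.0129). Col15a1, of the basement membrane zone, rose 2.84-fold, from 11.1 ± 5.48 to 31.6 ± 5.33 CPM.

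Of 27 matrix glycoproteins and proteoglycans tested, 13 rose, where 4.98% of all genes did, and the median log2 change was 0.90. In the controls the median was -0.54 and 4 fell, where 1.66% of all genes did. At the adjusted p alone 20 were higher and 2 lower in the knockouts, where 12.4% and 13% of all genes were. Their summed level, which the most abundant members set, was 4243 to 6313 CPM at 10 days and 4197 to 5279 CPM at 10 weeks, so it overlapped, and it was 4456 to 5912 and 5074 to 5629 CPM in the controls. The genotypes' changes differed for 18 of the 27, all in the higher direction, where 3.34% of all genes did. Eln, the precursor of elastic fibres, was at 2.64, 4.02, 6.21, 3.50 and 3.51 CPM at 10 days and 20.6, 17.9, 28.4, 26 and 27.4 CPM at 10 weeks, so the lowest 10-week value was well above the highest 10-day value. It rose 6.05-fold (log2 2.60 ± 0.24, edgeR adjusted p = 6.0e-07), and in the controls it went from 1.45 ± 0.744 to 0.519 ± 0.177 CPM, so the changes differed by 4.07 (edgeR adjusted p = 2.3e-04). Fbn1, the fibrillin on which elastin is laid down, was at 7.30, 15, 12.9, 5.18 and 7.74 CPM and then at 26.8, 27.5, 28.2, 35.7 and 29.4 CPM, with mouse 4 the highest of the 10-week values and no overlap (log2 1.60 ± 0.22, edgeR adjusted p = 4.4e-05).

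Enzymes that build and cut the matrix moved in part. Of 15 collagen modifying and crosslinking enzymes, Lox, Loxl1 and Plod2 rose, and the list's median of 0.19 was close to that of all genes (5 genes and 0.44 under total-count scaling). Lox, which crosslinks collagen and elastin, was at 0.507, 2.36, 1.99, 0.648 and 0.929 CPM and then at 2.83, 4.68, 4.69, 3.34 and 6.31 CPM, and Loxl1, which acts on elastin, was at 2.33, 3.67, 5.85, 4.92 and 4.95 CPM and then at 9.99, 8.26, 17, 9.44 and 7.45 CPM. Loxl1 values did not overlap and Lox values did not either. Of 17 matrix proteases and inhibitors, 5 rose, Mmp2, Mmp7, Mmp9, Timp2 and Timp3, where 4.98% of all genes did. The number was 10 both without 10-day mouse 2 and under total-count scaling. Mmp9, a gelatinase of leukocytes, lost its call without 10-day mouse 4 or 10-week mouse 3 (edgeR adjusted p = 0.0530 and 0.0701). Mmp2, a gelatinase of stromal cells, was at 10.1, 17.5, 16.6, 12.4 and 11.5 CPM and then at 32.3, 25.8, 41.2, 33.7 and 31.3 CPM (log2 1.27 ± 0.19, edgeR adjusted p = 7.2e-05). Mmp7, a protease of duct epithelium, was at 1.12, 0.437, 0.468, 0 and 0.103 CPM and then at 1.23, 2.49, 7.45, 4.92 and 9.90 CPM (log2 3.53 ± 0.61, edgeR adjusted p = 5.7e-04), with the highest 10-day value just under the lowest 10-week value.

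The TGF-beta pathway, which drives matrix production in stellate cells, held 9 genes that rose among 23 tested, where 4.98% of all genes did, with a median log2 change of 0.80. Among them were the ligands Tgfb2, Tgfb3 and Inhbb, the latent TGF-beta binding proteins Ltbp2 and Ltbp3, the activating integrin chains Itgb6 and Itgb8, and the target Ccn2. In 16 of the 23 genes every 10-week value lay above every 10-day value, against 8.87% of all genes. In the controls 2 genes of the list rose and 3 fell, where 1.12% and 1.66% of all genes did, with a median of -0.13. The genotypes' changes differed for 7 of the 23, all in the higher direction, where 3.34% of all genes did. Tgfb1, the best known ligand, was at 11.6, 18, 12.8, 7.26 and 10.2 CPM and then at 14.8, 15.2, 13.2, 10.03 and 12.1 CPM, with full overlap and a log2 difference of 0.12 ± 0.22 (edgeR adjusted p = 0.732). Tgfb2 was at 1.62, 0.786, 1.05, 0.518 and 1.24 CPM and then at 3.02, 4.08, 4.69, 3.44 and 3.33 CPM, rising in the knockouts with no overlap (log2 1.80 ± 0.34, edgeR adjusted p = 6.6e-04). In the controls Tgfb2 went from 1.03 ± 0.207 to 0.325 ± 0.336 CPM, which is low, and the changes differed by 3.46 (edgeR adjusted p = 0.00166). Ltbp2 was at 3.24, 2.71, 2.81, 2.20 and 1.44 CPM and then at 10.3, 11.3, 13.9, 9.35 and 12.9 CPM, and the changes differed by 3.26 (edgeR adjusted p = 0.00158). The Inhbb call was lost without 10-day mouse 1 or 5 or 10-week mouse 5, at edgeR adjusted p of 0.0620, 0.0672 and 0.0879.

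Of 17 markers of stellate cells and myofibroblasts, 3 rose, where 4.98% of all genes did, or 6 both without 10-day mouse 2 and under total-count scaling. The summed level was 237 to 359 CPM at 10 days and 429 to 496 CPM at 10 weeks, against 207 to 283 and 181 to 228 CPM in the controls. The 3 were Pdgfra, a growth factor receptor of stellate cells, which went from 11.7 ± 2.83 to 25.7 ± 4.44 CPM, Cygb, a globin of stellate cells, from 13.4 ± 1.44 to 32.1 ± 5.26 CPM, and Rgs5, a pericyte marker, from 41.0 ± 24.2 to 86.6 ± 10.4 CPM. Acta2, the smooth muscle actin of myofibroblasts, was at 1.93, 2.88, 3.86, 0.648 and 1.96 CPM and then at 3.87, 5.28, 5.33, 3.34 and 3.68 CPM, which overlapped, and its log2 difference of 0.91 ± 0.31 (edgeR adjusted p = 0.0359) was under 2-fold. The adjusted p of Acta2 rose to between 0.0681 and 0.0845 when 10-day mouse 1, 4 or 5 or 10-week mouse 2 or 3 was left out. Tagln, an actin-binding protein of the same cells, was at 6.29, 15.4, 12.3, 10.5 and 7.64 CPM and then at 14.6, 14.1, 9.93, 12 and 18.1 CPM (log2 0.40 ± 0.23, edgeR adjusted p = 0.212), and without 10-day mouse 2 its log2 difference was 0.63 (edgeR adjusted p = 0.0432). How far the larger marker sum goes with the matrix genes above was not tested.

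Among 10 genes of osteopontin receptors, Itga8 and Itgb6 rose. Itga8, an integrin chain of stellate and smooth muscle cells, was at 7.10, 11.2, 13.1, 9.72 and 11.5 CPM at 10 days and 22.4, 18.1, 30.5, 26.4 and 24.4 CPM at 10 weeks, without overlap (log2 1.21 ± 0.20, edgeR adjusted p = 2.0e-04). Itgb6, an epithelial integrin chain, was at 0.203, 0.175, 0.117, 0 and 0.310 CPM, at or under the level of 3 counts in a library, and then at 1.89, 1.29, 3.13, 1.28 and 3.15 CPM, at least 6.65-fold higher than the level of 3 counts. The chains with broad expression did not pass. Itgav was at 46.7, 56.5, 45.1, 35.2 and 45.3 CPM and then at 50.8, 59.0, 51.7, 53 and 57.1 CPM (log2 0.24 ± 0.10, edgeR adjusted p = 0.0802), with 0.37 and an edgeR adjusted p of 0.00729 without 10-day mouse 2. Itgb1 was at 232, 298, 279.9, 255 and 238 CPM and then at 238, 256, 261, 247 and 235 CPM (log2 -0.08 ± 0.09, edgeR adjusted p = 0.581). Cd44, the other kind of receptor, had means of 38.6 ± 11.4 and 34.8 ± 4.52 CPM (edgeR adjusted p = 0.649).

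**Figure D3:**
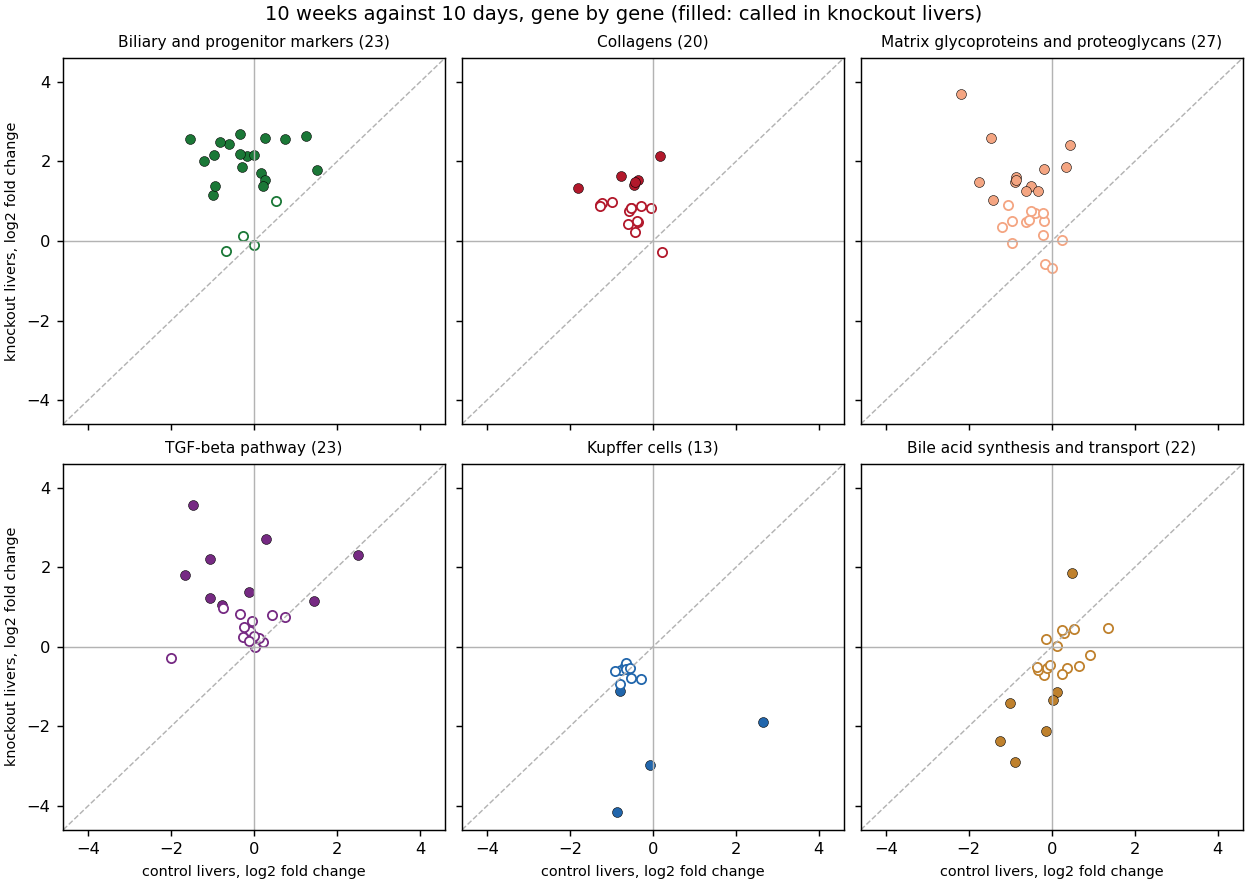
Log2 change from 10 days to 10 weeks in the controls (horizontal axis) and in the knockouts (vertical axis) for the tested members of 6 gene lists, 1 point per gene, filled where the gene was called in the knockouts. Above the dashed diagonal, where the knockout change exceeds the control change, lie 22 of 23 biliary genes, 19 of 20 collagens and 24 of 27 matrix glycoproteins, with Eln at 2.60 in the knockouts and -1.47 in the controls.

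Of 13 Kupffer cell markers, which mark the resident macrophages, 4 fell, Clec4f, Timd4, Cd163 and Marco, where 1.36% of all genes did, 8 were lower at the adjusted p alone, and 6 had every 10-week value under every 10-day value, where 7.23% of all genes did. The median log2 change was -0.79 in the knockouts and -0.65 in the controls. The summed level was 1737 to 3169.7 CPM at 10 days and 1196 to 1519.8 CPM at 10 weeks in the knockouts, and 1098 to 1916 and 599.8 to 1426 CPM in the controls. Without 10-day mouse 2, in which Marco was highest, the number that fell was 2.

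Clec4f, a lectin of Kupffer cells, was at 304, 381, 271, 273 and 283 CPM at 10 days and 134, 119, 99.7, 185 and 159.8 CPM at 10 weeks (log2 -1.12 ± 0.20, edgeR adjusted p = 4.7e-04), and in the controls it went from 233 ± 45.3 to 134 ± 41.6 CPM, so its changes did not differ by test (difference -0.32 ± 0.28, edgeR adjusted p = 0.535). Timd4, a phosphatidylserine receptor that long-lived Kupffer cells carry, was at 14.2, 23, 12.6, 17 and 10.6 CPM and then at 4.81, 0.896, 1.2, 1.67 and 1.23 CPM. Cd163, a scavenger receptor for haemoglobin and haptoglobin, was at 33.7, 51.8, 28.1, 60.4 and 22.8 CPM and then at 2.07, 0.796, 0.919, 5.31 and 2.02 CPM. Both were lower in every 10-week knockout than in any 10-day knockout, with mouse 1 the highest for Timd4 and mouse 4 for Cd163, and the mean of Cd163 was 17.7 times higher at 10 days. In the controls Timd4 was at 14.4 ± 7.07 and 13.5 ± 6.45 CPM and Cd163 at 50.4 ± 11.7 and 27.6 ± 13.2 CPM. The genotypes' changes differed by -2.90 (edgeR adjusted p = 0.00730) and -3.28 (edgeR adjusted p = 0.00142). Marco, another scavenger receptor, was at 32.0, 216, 45.8, 28.1 and 21.2 CPM and then at 41.8, 10.4, 13.6, 15.4 and 11.2 CPM, so 10-day mouse 2 stood far above the rest and the groups overlapped. Its call (log2 -1.90 ± 0.62, edgeR adjusted p = 0.0278) was lost without that mouse (log2 -0.75, edgeR adjusted p = 0.277) and without any of 10-week mice 2 to 5. In the controls Marco rose, from 15.7 ± 7.12 to 97.8 ± 62.7 CPM.

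Of 16 markers of lipid-associated macrophages, which gather in fatty liver, Gpnmb and Atp6v0d2 rose, or 4 genes without 10-day mouse 2 and 5 under total-count scaling. Gpnmb, a lysosomal glycoprotein, was at 24.5, 28.9, 32.8, 3.24 and 5.68 CPM at 10 days and 53.6, 45.8, 71.6, 60.3 and 33.2 CPM at 10 weeks, so 10-day mice 4 and 5 were the lowest and the other 3 lay between these and the lowest 10-week mouse. The control means were 0.897 and 1.16 CPM. Trem2, a lipid receptor, was at 15.9, 14.8, 11.9, 2.72 and 5.88 CPM and then at 14, 16.8, 15.4, 16.2 and 13.3 CPM, with the same mice low (log2 0.55 ± 0.29, edgeR adjusted p = 0.179). Among 10 monocyte and neutrophil genes, S100a8, S100a9, Retnlg and Ngp rose, all of them neutrophil genes, and only 1 of the 10 was called without 10-day mouse 4, without 10-day mouse 5 or without 10-week mouse 3, and 2 were by limma on the authors' table. S100a8, a calcium-binding protein of granulocytes, was at 3.95, 1.92, 5.62, 1.55 and 2.48 CPM and then at 4.43, 13.3, 28.1, 8.56 and 4.91 CPM, which overlapped, with mouse 3 the highest. Without that mouse the log2 change of S100a8 went from 1.94 ± 0.63 (edgeR adjusted p = 0.0273) to 1.33 (edgeR adjusted p = 0.129), and without 10-day mouse 4 or 5 the adjusted p was 0.0683 and 0.0528. The monocyte genes Ly6c2 (1.72, 3.41, 1.99, 3.11 and 1.03 CPM, then 2.45, 1.29, 2.21, 3.25 and 2.37 CPM) and Ccr2 (10.7, 12, 10.9, 3.50 and 8.15 CPM, then 7.73, 13, 8.09, 9.44 and 11 CPM) overlapped throughout.

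Of 18 lymphocyte genes 6 rose, Cd3g, Cd8a, Trac, Il7r, Nkg7 and Ighm, where 4.98% of all genes did, and 2 did by limma on the authors' table. The summed level, which overlapped, was 39.4 to 92.5 CPM at 10 days and 47.5 to 99.5 CPM at 10 weeks. Cd3g, a chain of the T cell receptor complex, was at 0.71, 1.4, 0.820, 0.648 and 0.516 CPM and then at 1.60, 3.88, 2.02, 1.08 and 2.45 CPM, which overlapped. Nkg7, a granule protein of cytotoxic cells, lost its call without 10-day mouse 1 or 4 or 10-week mouse 2 (edgeR adjusted p = 0.0536, 0.0545 and 0.0786). The 9 genes of MHC class II had log2 changes of -0.04 to 0.52 in the knockouts. Of these, 4 changed differently between genotypes, in the higher direction, where 3.34% of all genes did. H2-Aa, one of these chains, was at 169.6, 165, 217, 94.2 and 104 CPM and then at 176, 259, 151, 158 and 206 CPM in the knockouts and went from 77.0 ± 24.9 to 41.2 ± 4.31 CPM in the controls. Of 25 interferon-stimulated genes, Irf7 and Ifi44 fell. Irf7, a transcription factor that interferon induces, was at 161, 352, 209, 217 and 148 CPM and then at 101, 63.2, 51.2, 111 and 95.5 CPM, lower in every 10-week knockout (log2 -1.37 ± 0.22, edgeR adjusted p = 2.0e-04). Ifi44 lost its call without 10-day mouse 2 or 10-week mouse 2 or 3 (edgeR adjusted p = 0.153, 0.0675 and 0.0549), and 4 genes were called lower without 10-day mouse 5 and 1 was under total-count scaling, with a replicate block, by limma and with the knockout libraries alone.

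Endothelial genes gave 1 call among 17 sinusoidal and 2 among 10 capillary and arterial genes, where 4.98% of all genes rose. Of 17 sinusoidal genes Flt4, a receptor for lymphatic growth factors, rose from 34.5 ± 11 to 71.9 ± 13.9 CPM, and in the controls it rose from 22.4 ± 4.46 to 45.1 ± 4.67 CPM. Flt4 was no longer called without 10-day mouse 3 or 5 or 10-week mouse 4, and 2 genes of the list were called without 10-week mouse 2 and under total-count scaling. Of 10 genes of capillary and arterial endothelium, Cd34, which sinusoids gain when they turn capillary-like, rose from 5.16 ± 1.35 to 12.5 ± 4.51 CPM while the controls went from 5.98 ± 2.10 to 1.87 ± 0.693 CPM, and Gja4, a gap junction protein of arteries, also rose. The number of calls in that list was 1 without 10-day mouse 1, 4 or 5 or 10-week mouse 4 or 5, with a replicate block and by limma. Markers of other tissues that a liver sample can hold were examined as well. Mesothelial genes summed to 3.24 to 27.7 CPM at 10 days and 12.4 to 120.2 CPM at 10 weeks, red cell genes to 401 to 2219 and 493 to 1172 CPM, and 9 adipocyte genes to 151 to 377 and 330.0 to 557 CPM. Of the adipocyte genes Adipoq, Lep, Plin1 and Retn, which mark fat cells, were at a mean of 0 in both knockout groups, and of the 5 tested Car3, which hepatocytes also express and which made up most of the sum, rose. The mesothelial median log2 change of 1.48 was 0.26 without 10-week mouse 3.

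**Figure D4:**
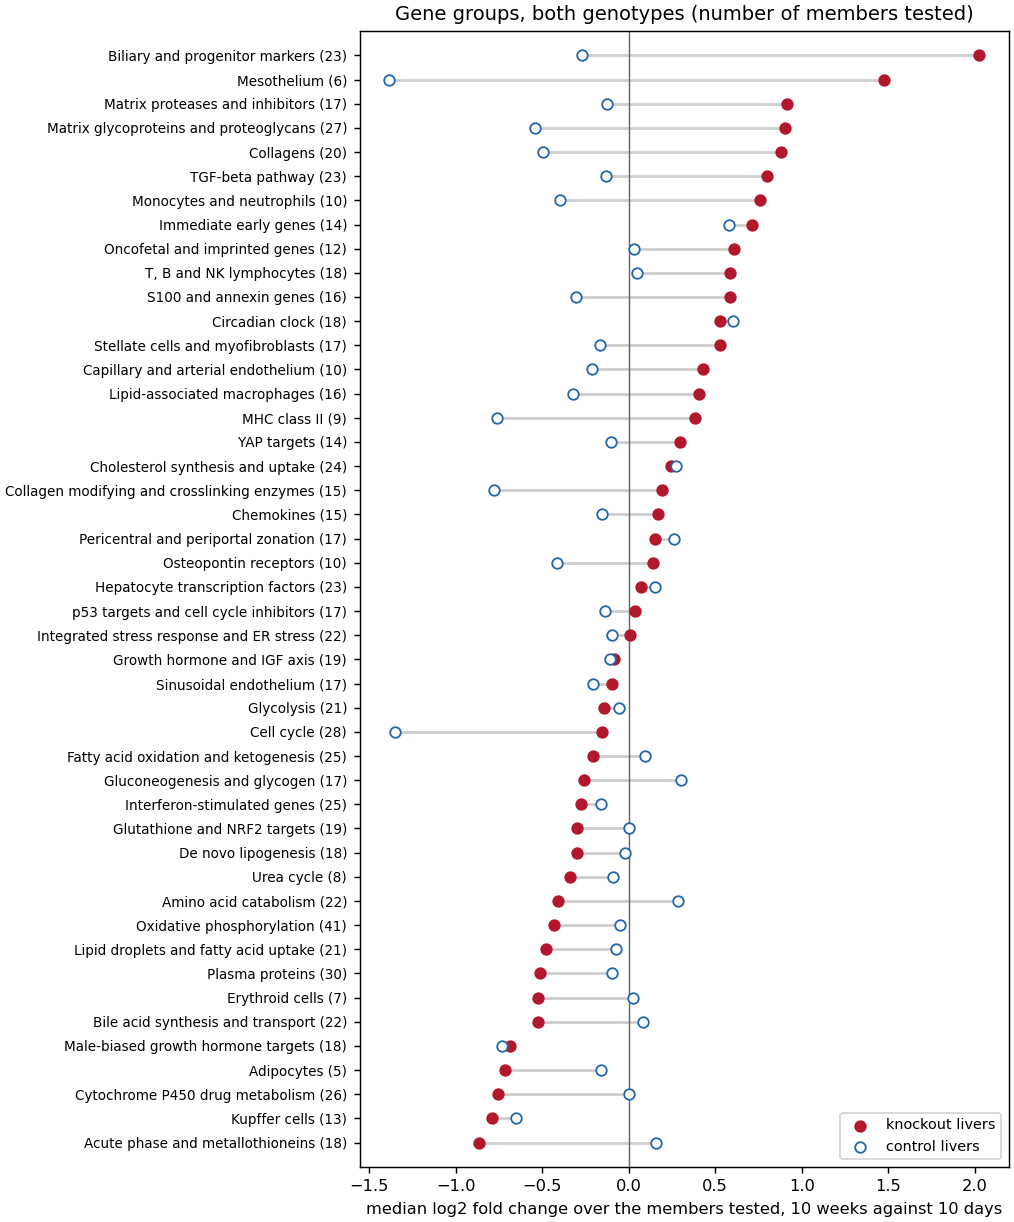
Median log2 change from 10 days to 10 weeks (horizontal axis) of the tested members of each gene list with 5 or more tested genes, filled for knockouts and open for controls. The biliary list has the highest knockout median, 2.02, collagens and matrix genes lie near 0.9 in the knockouts and below 0 in the controls, and the Kupffer cell list lies below 0 in both.

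In the hepatocyte functions of this paragraph most genes were not called, as over all genes, of which 6.34% were called. All 41 subunits of oxidative phosphorylation kept within log2 changes of -0.62 to -0.20, and 39 were lower at the adjusted p alone, where 13% of all genes were. Under total-count scaling 14 were lower and the list median went from -0.43 to -0.15. The 23 hepatocyte transcription factors had log2 changes of -0.90 to 0.96 and a median of 0.07, and the 8 urea cycle genes had changes of -0.99 to 0.21. Of 30 plasma proteins 17 were lower at the adjusted p alone, where 13% of all genes were, and the median was -0.51. Under total-count scaling 9 were lower and 3 higher at the adjusted p alone, and the list median was -0.20. Alb had means of 53753 ± 18569 and 37950.3 ± 3165 CPM (edgeR adjusted p = 0.0638, or 0.0449 and 0.0275 without 10-day mouse 1 or 2). Serpina3k, an abundant serine protease inhibitor, was at 8337, 2767, 7022, 14696 and 9939 CPM and then at 1914, 1546, 3821, 2919.8 and 2215 CPM, with 10-day mouse 2 the only one inside the 10-week range (log2 -1.78 ± 0.34, edgeR adjusted p = 8.1e-04). Serpina1e, a copy of the α1-antitrypsin gene, was at 20.5, 16.3, 17.2, 25.3 and 9.6 CPM and then at 139.6, 96.1, 1229.8, 786 and 376 CPM, a rise that ran from 96.1 to 1229.8 CPM between mice of the 10-week group, and the controls had 5819.6 ± 3281 and 4932 ± 4897 CPM (difference between genotypes 5.13, edgeR adjusted p = 0.0126). Reads of the near-identical Serpina1 and Serpina3 copies are shared out between genes by the counting, so values of 1 copy are uncertain.

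Bile acid genes split. Of 22 genes of bile acid synthesis and transport, Cyp7a1 rose and 6 fell, Cyp8b1, Cyp2c70, Slc27a5, Akr1d1, Slc10a1 and Slco1a1. Of all genes 4.98% rose and 1.36% fell. The list's median was -0.53, or -0.23 under total-count scaling, and the genotypes' changes differed for 5 genes, all in the lower direction, where 0.442% of all genes did. Cyp7a1, the rate-limiting enzyme of bile acid synthesis, was at 43.2, 28.8, 15.2, 21.4 and 22.5 CPM at 10 days and 104, 124, 105, 51.0 and 92.8 CPM at 10 weeks, without overlap, although mouse 4 at 10 weeks came close to mouse 1 at 10 days (log2 1.86 ± 0.31, edgeR adjusted p = 2.3e-04). The 10-day and 10-week controls had 109.7 ± 24.2 and 154 ± 72.5 CPM. Cyp8b1, the enzyme that directs synthesis to cholic acid, was at 157, 117, 100.3, 378 and 248.9 CPM and then at 71.1, 34.1, 19.7, 39.3 and 27.9 CPM, and it also fell in the controls, from 291 ± 67.3 to 122 ± 35.8 CPM (difference -1.12 ± 0.47, edgeR adjusted p = 0.154). Slc10a1, the main uptake transporter for bile acids, was at 335, 113, 275, 386 and 285 CPM and then at 53.1, 49.7, 105, 63.2 and 47.8 CPM, lower in every 10-week knockout, with 10-day mouse 2 and 10-week mouse 3 nearest to each other. Its log2 change was -2.13 ± 0.25 (edgeR adjusted p = 7.0e-06), the controls had 441 ± 54.6 and 404 ± 52.4 CPM, and the changes differed by -2.0 (edgeR adjusted p = 0.00170). Slco1a1, an organic anion transporter, was at 58.9, 47.9, 139, 339.7 and 245 CPM and then at 21.4, 9.46, 43.7, 21.5 and 14.5 CPM. The 10-day values of Slco1a1 spread widely between mice, yet only 10-week mouse 3 came near the lowest of them.

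Of 24 genes of cholesterol synthesis and uptake, 4 rose, among them Idi1, Sqle and Msmo1, where 4.98% of all genes did. The number was 2 without 10-day mouse 2 or 3 or 10-week mouse 3 or 4 and by limma. Sqle, the squalene epoxidase of the pathway, went from 4.62 ± 4.26 to 15.5 ± 6.06 CPM (log2 1.74 ± 0.42, edgeR adjusted p = 0.00491), and the controls had 0.624 ± 0.323 and 0.748 ± 0.535 CPM. Among 26 cytochrome P450 genes of drug metabolism 6 fell and 2 rose, where 1.36% and 4.98% of all genes did, and 3 fell without 10-day mouse 4. The number that rose was 1 under several settings. Cyp2f2, a periportal enzyme, was at 274, 408, 849.6, 2094 and 999 CPM and then at 218, 49.98, 56.1, 188 and 61.8 CPM, so 10-day mouse 4 held most, and every 10-week value was lower than every 10-day value. Cyp2c29, which oxidises drugs and fatty acids, had means of 1819.7 ± 1047 and 716 ± 225 CPM, and Cyp2c40, a copy of the same family whose reads may be shared with others, had means of 11.5 ± 3.80 and 1.80 ± 0.697 CPM.

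Genes of sugar and amino acid handling are given for those with the largest differences in CPM. Tat, an enzyme of tyrosine breakdown, was at 474, 433, 955, 1273 and 229.6 CPM and then at 1394, 1436, 1795, 2332 and 1347 CPM, higher in each 10-week knockout than in any at 10 days (log2 1.30 ± 0.36, edgeR adjusted p = 0.0110), and it rose in the controls as well, from 970.1 ± 422 to 3275 ± 852 CPM. Slc7a2, a transporter of basic amino acids, rose from 217 ± 90.1 to 503 ± 80.5 CPM, and in the controls from 426 ± 135 to 946 ± 154 CPM. Ahcy, which hydrolyses S-adenosylhomocysteine, fell from 2098 ± 671 to 1017 ± 104 CPM, and Car3, a carbonic anhydrase of hepatocytes and fat cells, rose from 167 ± 90.3 to 410.1 ± 96.1 CPM. Ppp1r3g, a subunit that directs protein phosphatase 1 to glycogen, was at 0, 0.524, 0.234, 1.43 and 0 CPM and then at 5.28, 13.6, 27.4, 15.6 and 4.21 CPM, and it rose in the controls from 0.498 ± 0.368 to 6.43 ± 5.06 CPM. G0s2, an inhibitor of the lipase that opens lipid droplets, fell from 23 ± 7.18 to 11.1 ± 1.94 CPM, a call lost in the fit of all 30 libraries and under total-count scaling (edgeR adjusted p = 0.0642 and 0.0709). Fasn, the fatty acid synthase, had means of 475 ± 299 and 242 ± 40.2 CPM, with 10-day mouse 1 at 956 CPM (log2 -0.97 ± 0.29, edgeR adjusted p = 0.0176, or -0.53 with an edgeR adjusted p of 0.113 without that mouse).

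Most acute phase calls were lost without 1 mouse. Of 18 acute phase and metallothionein genes, Orm1, Orm2, Orm3, Crp and Apcs were called lower at 10 weeks, where 1.36% of all genes were, and 3 were under total-count scaling. Without 10-day mouse 1 only Crp was called. Crp, C-reactive protein, fell from 545 ± 101 to 251 ± 24.6 CPM (log2 -1.12 ± 0.13, edgeR adjusted p = 6.0e-06). Orm1, orosomucoid, was at 1794, 86.6, 292, 29.8 and 49.5 CPM at 10 days and 43.6, 123, 131, 52.8 and 52.3 CPM at 10 weeks, so 10-day mouse 1 stood far above all others, and mouse 3 was the only other one above the 10-week range. Its call (log2 -2.48 ± 0.77, edgeR adjusted p = 0.0217) was lost without that mouse (log2 -0.49, edgeR adjusted p = 0.524), and the adjusted p was 0.0514 to 0.0559 without 10-week mouse 1, 4 or 5. Saa1, serum amyloid A, was at 3992, 211, 649, 194 and 324 CPM and then at 324, 319.6, 232, 188 and 326 CPM, with the same mouse high (edgeR adjusted p = 0.0886). The Orm and Saa copies share reads, so values of single copies are uncertain.

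Growth genes moved in part. Ccnd1, the cyclin of the G1 phase, was at 84.5, 74.4, 106, 25.4 and 28.2 CPM at 10 days and 199.99, 187, 181, 218 and 203 CPM at 10 weeks. The 10-week mice were close together and above all 10-day mice, of which mice 4 and 5 were at or under the control means of 28.1 and 40.0 CPM (log2 1.63 ± 0.33, edgeR adjusted p = 0.00124). Mki67, a marker of dividing cells, was at 16.8, 27.3, 15.8, 11.3 and 27.1 CPM and then at 13.7, 17.4, 10.6, 18.4 and 17.9 CPM, overlapping, and fell in the controls from 8.25 ± 2.87 to 3.07 ± 2.76 CPM. Cdk1, the kinase of mitosis, was at 10.6, 11.1, 10.1, 7.90 and 11.8 CPM and then at 6.69, 6.47, 4.78, 9.25 and 9.03 CPM (log2 -0.51 ± 0.27, edgeR adjusted p = 0.183) and fell in the controls from 5.07 ± 2.23 to 1.04 ± 0.740 CPM, with a difference between genotypes of 1.72 (edgeR adjusted p = 0.0285). Of 28 cell cycle genes 11 fell in the controls, where 1.66% of all genes did, and the control median was -1.35. In the knockouts 2 rose and 1 fell, and the median was -0.16, or 0.08 under total-count scaling. The genotypes' changes differed for 2 of the 28, in the higher direction, where 3.34% of all genes did.

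Of 12 oncofetal and imprinted genes Igf2 and Dlk1 rose, and 4 did under total-count scaling. Igf2, a fetal growth factor, was at 0.304, 0.699, 1.99, 2.07 and 2.48 CPM and then at 11.1, 8.16, 5.52, 13.1 and 10.5 CPM, higher in all 10-week knockouts (log2 2.71 ± 0.34, edgeR adjusted p = 1.6e-05). Dlk1, a Notch-related protein of fetal liver, was at 0, 0.175, 0.234, 0 and 0.103 CPM, under the level of 3 counts in each library, and then at 2.55, 2.39, 2.48, 4.92 and 3.68 CPM, at least 9.91-fold higher than that level. Afp, the fetal albumin, had means of 0.847 ± 0.276 and 1.61 ± 0.552 CPM (edgeR adjusted p = 0.117), and H19, an imprinted RNA beside Igf2, had 12 ± 5.46 and 17.6 ± 6.81 CPM (edgeR adjusted p = 0.229). Of 14 YAP targets, genes induced by mechanical and growth signals, Ccn2, Ankrd1 and F3 rose, where 4.98% of all genes did. Ccn2, a matrix-associated growth factor that TGF-beta also induces, rose from 14.5 ± 7.49 to 37.2 ± 4.80 CPM, and Ccn1, its close relative, had 9.70 ± 1.46 and 8.74 ± 1.48 CPM (edgeR adjusted p = 0.684). Of 16 S100 and annexin genes 6 rose, where 4.98% of all genes did. Among them S100a6, a calcium-binding protein of epithelial and stromal cells, rose from 3.89 ± 0.395 to 11 ± 5.15 CPM.

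Clock genes were called in the knockouts and in the controls. The liver clock is a feedback loop in which Arntl (BMAL1) and Clock switch on the Per, Cry, Nr1d and Dbp genes. The Per, Cry and Nr1d proteins in turn hold the loop back, and transcript levels therefore follow the time of day. Of 18 clock genes tested 7 rose and 4 fell in the knockouts, and 7 rose and 2 fell in the controls, with medians of 0.53 and 0.60. Of all genes 4.98% rose and 1.36% fell in the knockouts, and 1.12% rose and 1.66% fell in the controls. The hour at which livers were taken is not given in the sources used here, and its part was not tested. Arntl was at 12.9, 9.17, 10.1, 18.4 and 23.8 CPM at 10 days and 0.849, 2.19, 0.919, 1.87 and 2.98 CPM at 10 weeks, lower in every 10-week knockout (log2 -3.06 ± 0.37 in the knockouts and -3.18 ± 0.38 in the controls). Dbp, a transcription factor of the clock's output, was at 4.16, 6.99, 9.02, 3.37 and 4.54 CPM and then at 56.5, 37.1, 60.6, 28.9 and 17.7 CPM (log2 2.83 ± 0.36 and 3.37 ± 0.38). Ciart, a repressor of the loop, was at 0.304, 0.437, 1.41, 0.777 and 0.206 CPM and then at 6.13, 2.79, 4.69, 6.30 and 5.52 CPM (log2 3.06 ± 0.34 and 3.85 ± 0.32). For all 3 the knockout groups were well apart. Clock was at 29.9, 36.8, 28.8, 38.9 and 63.9 CPM and then at 23.9, 22.4, 20.7, 29.4 and 25.3 CPM, and Per1 was at 7.4, 10.1, 19.6, 19.3 and 8.46 CPM and then at 28.9, 27.7, 23.9, 34.3 and 25.8 CPM. Nfil3, a repressor that competes with Dbp for its sites, was the 1 clock gene whose change differed by test. It was at 34.4, 23.8, 32.4, 54.9 and 34.4 CPM and then at 3.68, 7.67, 7.81, 11.1 and 11 CPM in the knockouts and went from 44.1 ± 5.91 to 24.9 ± 9.66 CPM in the controls (difference -1.29, edgeR adjusted p = 0.0418).

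The promoters of Ciart and Per3 are shown because members of this list were called in both genotypes and these windows hold the letters that clock factors are known to read. They are the 250 bases before the gene start in RefSeq (GRCm38.p6), for Ciart chr3:95882229-95882478, minus strand, with E-boxes (CACGTG) in capitals, and for Per3 chr4:151044666-151044915, minus strand, with D-boxes (TTATGTAA) in capitals.
Ciart: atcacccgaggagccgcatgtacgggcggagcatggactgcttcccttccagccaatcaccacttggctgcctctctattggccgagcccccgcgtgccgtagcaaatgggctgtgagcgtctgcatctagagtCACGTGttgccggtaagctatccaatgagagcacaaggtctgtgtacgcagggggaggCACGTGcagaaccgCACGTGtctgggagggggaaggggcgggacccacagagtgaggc
Per3: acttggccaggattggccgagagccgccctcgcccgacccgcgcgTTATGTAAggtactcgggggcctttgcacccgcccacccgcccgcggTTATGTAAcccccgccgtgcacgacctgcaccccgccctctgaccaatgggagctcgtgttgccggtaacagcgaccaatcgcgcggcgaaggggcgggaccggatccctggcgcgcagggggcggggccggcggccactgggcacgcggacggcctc
The E-box was found 3 times in the Ciart window, 116, 58 and 44 bases before the start, and the D-box 2 times in the Per3 window, 205 and 158 bases before it. Of the 19 clock genes listed 16 matched a RefSeq promoter, with 21 windows. An E-box on either strand stood in 6 of these (28.6%) and in 6.02% of all windows. A D-box stood in 1 of the 21 (4.76%), that of Per3, and in 0.819% of all windows. The windows shown were picked for holding these letters and are among those counted, so the shares are a description. The AGGTCA letters that ROR and REV-ERB receptors read, searched in the same way, stood in 4 of the 21 windows (19.05%) and in 14.02% of all windows. Ciart rose 8.12-fold and Per3, a period protein, rose 2.65-fold in the knockouts. A match says only that these letters are in the window.

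**Figure D5:**
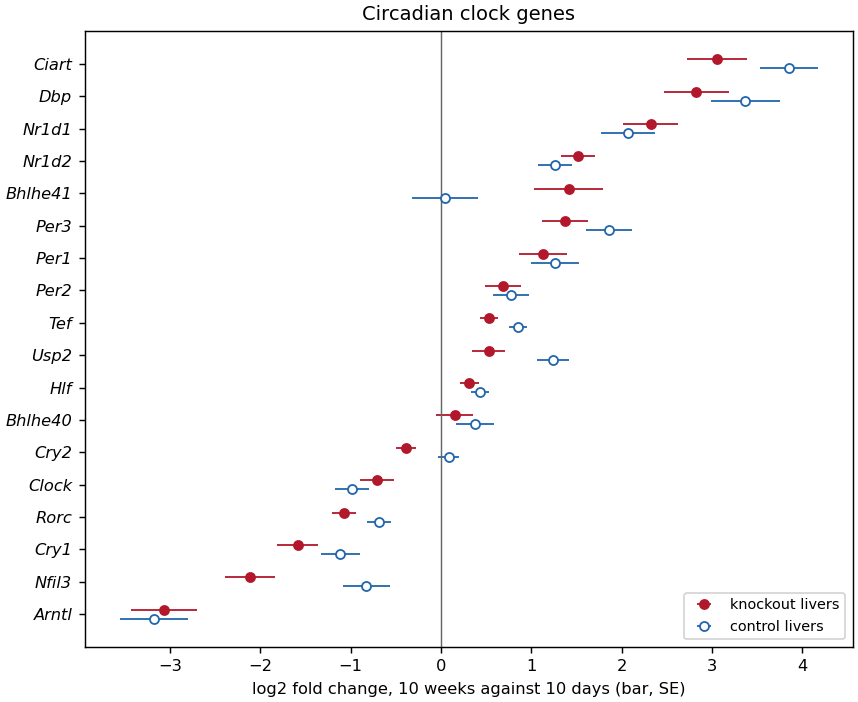
Log2 change from 10 days to 10 weeks (horizontal axis) of 18 clock genes in knockouts and in controls, with bars of 1 standard error from the edgeR fit. The changes of the genotypes lie close together for Arntl (-3.06 and -3.18) and Dbp (2.83 and 3.37) and apart for Nfil3 (-2.11 and -0.82).

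The largest fold changes outside these groups are given by the fixed rule. Klk1b21, Klk1b27 and Klk1, tissue kallikreins that lie in one gene cluster and share reads, rose together. Klk1b21 was at 0.406, 0.437, 0, 0.259 and 0 CPM and then at 3.49, 6.97, 24.5, 7.77 and 10.7 CPM, and Klk1 was at 1.42, 1.48, 1.29, 2.98 and 1.03 CPM and then at 9.33, 8.96, 41.3, 9.44 and 12 CPM, with mouse 3 the highest of the 10-week group for both. In the controls Klk1b21 rose from 0.142 ± 0.201 to 3.07 ± 2.05 CPM and Klk1 went from 4.88 ± 2.87 to 17 ± 13.8 CPM. Tmem229a, a membrane protein, rose from 0.859 ± 0.401 to 6.6 ± 0.7999 CPM, and H2-Q1, an MHC class I gene with near-identical copies, rose from 4.98 ± 1.88 to 34.6 ± 8.59 CPM. Of those that fell, Eci3, a peroxisomal isomerase of fatty acid oxidation with close relatives, was at 3.65, 8.73, 6.21, 6.997 and 7.74 CPM and then at 0.377, 0.199, 0, 0.0984 and 0 CPM, which is near or at 0. The controls had 0.187 ± 0.130 and 0.729 ± 1.17 CPM of Eci3, so the gene was seen in the 10-day knockouts above all, and the changes differed by -7.43 (edgeR adjusted p = 0.00119). Ly6c1, a surface protein of endothelial and immune cells, was at 4.87, 17, 16.9, 59.7 and 29.1 CPM and then at 3.02, 2.89, 2.02, 1.67 and 3.51 CPM, with 10-day mouse 4 the highest and mouse 1 the lowest of a group that did not overlap with the later one. Slc30a10, a manganese exporter, was at 28.5, 7.42, 11.4, 17.9 and 35.2 CPM and then at 2.26, 1.10, 2.76, 2.66 and 2.72 CPM, and it also fell in the controls, from 37.0 ± 2.77 to 8.80 ± 1.36 CPM. Gbp2b, an interferon-induced GTPase, fell from 5.39 ± 2.19 to 1.02 ± 0.657 CPM and in the controls from 7.79 ± 1.64 to 1.98 ± 1.26 CPM.

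By the test of the difference between genotypes, the genes with the largest differences beside those above were Ngp, Slc34a2 and Abcc12. Ngp, a neutrophil granule protein, was at 0.811, 0.175, 2.34, 0.648 and 0.516 CPM and then at 0.943, 5.67, 14.5, 5.41 and 0.789 CPM in the knockouts and went from 1.80 ± 2.28 to 0.313 ± 0.241 CPM in the controls (difference 5.11, edgeR adjusted p = 0.0322). Its change in the knockouts alone (log2 2.64 ± 0.85, edgeR adjusted p = 0.0266) was 1.85 without 10-week mouse 3 (edgeR adjusted p = 0.126), and the adjusted p was 0.0515 to 0.0583 without 10-day mouse 1, 2, 4 or 5. Slc34a2, a phosphate transporter of epithelia, was at 5.98, 10.9, 2.81, 1.17 and 6.81 CPM and then at 3.11, 3.58, 4.96, 3.34 and 11.5 CPM in the knockouts, which overlapped, and fell in the controls from 50.3 ± 24.2 to 2.78 ± 2.13 CPM, so the difference of 4.05 (edgeR adjusted p = 0.00225) came with a change in the controls. Abcc12, an ABC transporter, was at 6.79, 16.4, 15, 14.6 and 19.9 CPM and then at 4.62, 2.99, 2.57, 2.26 and 2.02 CPM in the knockouts, lower in every 10-week mouse, against 0.759 ± 0.219 and 0.982 ± 0.479 CPM in the controls (difference -2.70, edgeR adjusted p = 0.00400).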

How the data were processed

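RNA from whole livers of 20 mice of the inducible experiments (4 groups of 5) was sequenced, among 30 libraries of the series. Per the submitters' processing notes the authors used Trimmomatic 0.36, STAR 2.5.1, Picard 1.84, RSEM 1.2.22 and DESeq2 with mm10. The authors deposited RSEM expected counts per gene for 55450 genes, of which 3.25% of values were not whole, and they were rounded here. The deposited filtered table holds the authors' TMM-normalized signal and served only as an alternative. The library files deposited by the authors also hold the TPM and FPKM values of RSEM, which were not used.

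Genes were filtered by expression (filterByExpr), leaving 12900, scaled by TMM and tested by the edgeR quasi-likelihood test (edgeR 4.0.16, R 4.3.3) in 1 fit of 4 groups without covariates. The contrasts were 10 weeks against 10 days in knockouts, in controls, and their difference. A gene was called at a Benjamini-Hochberg adjusted p under 0.05 over all tested genes and a fold change over 2. Log2 CPM used a prior count of 2, and 3 counts were taken as the lowest level from which a fold is given. Intervals from counting alone are not given, and the spread is that between mice. The fit was tested on simulated counts.

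Members and gene lists were chosen with earlier results of these data known, so lists carry no test of their own. Named genes were Cebpa and Spp1, list members, the 10 largest fold changes each way (mean of at least 5 CPM in the higher group, no overlap), the 5 largest differences of mean CPM each way and the 5 largest differences between genotypes each way, without predicted genes. A few genes, 1 of them chosen by this rule for its difference of mean CPM, are not reported here. Values of single mice follow the first 2 tested members of the main lists and this rule. The rule's other values of single mice are left out for length, and Epcam, Col3a1, Eln, Ltbp2, Itga8, Cd163, Marco, Slc10a1, Slco1a1, Dbp, Ciart, Arntl, Nfil3, Cdk1, Ccnd1, Igf2 and Dlk1 were in part chosen after their values were seen. Alternatives were limma 3.58.1 on log2 of the authors' values plus 1, DESeq2 1.42.0, other scalings, filters, samples and thresholds, a replicate block, and each knockout mouse left out. Promoters were matched by symbol to RefSeq (GRCm38.p6).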

Additional observations from a re-analysis of the deposited data

Results flagged for a closer look

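For 65 genes whose values are given by mouse, each knockout group was searched for a mouse far from the rest, by the gap to the nearest other mouse as a share of the group's range (Dixon's test, critical value for 5 mice). The test's rate of about 1 in 20 by chance holds for normally distributed values of genes not picked by value. Here CPM was used without a log, and part of the genes were picked after their values were seen. The critical value was passed by 13 of 130 gene and group pairs, and this count is a description. In the 10-day knockouts these were mouse 2 for Marco (share 0.873), mouse 1 for Orm1 (0.851) and Saa1 (0.880), mouse 4 for Klk1 (0.768) and mouse 5 for Clock (0.713). In the 10-week knockouts they were mouse 1 for Marco (0.838) and Timd4 (0.802), mouse 3 for Klk1 (0.906), Loxl1 (0.734) and Slc10a1 (0.733), mouse 4 for Cd163 (0.717) and Fbn1 (0.712), and mouse 5 for Slc34a2 (0.779).

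The change from 10 days to 10 weeks differed between knockouts and controls for 32 of the 65 genes by the edgeR interaction test, 25 in the higher direction. The count is at the adjusted p alone, at which 4.05% of all genes differed in the higher and 3.1% in the lower direction. Part of the 65 genes were picked for the size of this difference or after their values were seen, so the count is a description. With more than a 2-fold difference as well, 3.78% of all genes were called. The difference of Itgav was under 2-fold. The differences of log2 changes are given as knockout minus control. Among biliary genes and Spp1 they were 1.55 for Spp1, 3.23 for Krt19, 3.06 for Krt7 and 1.83 for Epcam. For matrix genes and their enzymes they were 2.20 for Col1a1, 1.95 for Col1a2, 2.19 for Col3a1, 4.07 for Eln, 2.47 for Fbn1, 3.41 for Lox, 2.10 for Loxl1 and 1.65 for Mmp2. For stellate, TGF-beta and integrin genes they were 1.75 for Acta2, 1.61 for Tagln, 3.46 for Tgfb2, 3.26 for Ltbp2, 1.91 for Itga8 and 0.52 for Itgav. Macrophage and immune genes differed both ways, by -2.90 for Timd4, -3.28 for Cd163, -4.54 for Marco, 1.83 for Trem2, 3.75 for S100a8, 5.11 for Ngp and 1.24 for H2-Aa. Hepatocyte genes differed by -2.0 for Slc10a1, 5.13 for Serpina1e and -7.43 for Eci3. The remaining differences were -1.29 for Nfil3, 1.72 for Cdk1, -2.70 for Abcc12 and 4.05 for Slc34a2.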

How the results depend on the processing

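Spp1 was called under all alternatives, with log2 changes of 1.55 to 1.88 when 1 knockout mouse was left out. Genes called higher in the knockouts numbered 991 under total-count scaling, 350 by limma on the authors' table and 1603 without a minimum fold change, and genes called lower numbered 89 under total-count scaling and 1675 without a minimum fold change. Other settings gave 515 to 855 higher and 138 to 211 lower. In the controls limma called 91 higher and 109 lower, no minimum fold change gave 657 and 533, and an adjusted p under 0.01 gave 90 and 106. For the difference between genotypes an adjusted p under 0.01 gave 171 higher and 27 lower, and the lower count was 35 with upper quartile scaling, 20 under total-count scaling and 400 without a minimum fold change. With 1 knockout mouse left out, counts were 588 to 855 higher and 154 to 191 lower in the knockouts, and 347 to 634 higher and 39 to 88 lower for the difference, with 88 without 10-day mouse 2. The log2 difference of Cebpa was 0.18 to 0.52.

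Total-count scaling moved the share of higher calls from 78.5% to 91.8% and the median of all genes to 0.26, and list medians with it by its construction. These became 1.14 for matrix glycoproteins, 0.44 for crosslinking enzymes, 0.79 for stellate cells, 1.04 for TGF-beta, 0.36 for osteopontin receptors, 0.15 for sinusoids, 0.69 for capillary endothelium, 0.32 for hepatocyte transcription factors, -0.20 for plasma proteins, -0.0719 for the urea cycle, -0.11 for amino acid catabolism, 0.0247 for gluconeogenesis, 0.11 for glycolysis, -0.0161 for lipogenesis, -0.21 for lipid droplets, 0.0412 for fatty acid oxidation, -0.23 for bile acids, 0.83 for oncofetal genes, 0.25 for p53 targets, 0.26 for the integrated stress response, 0.55 for YAP targets, 0.45 for zonation, 0.80 for the clock and -0.15 for oxidative phosphorylation. Limma gave medians of 0.65 for TGF-beta, 1.36 for biliary genes and -0.33 for adipocytes, and the knockout libraries alone gave 0.0240 for adipocytes. With 1 mouse left out, medians ranged from 0.26 to 1.89 for mesothelium, -0.00898 to 0.0845 for hepatocyte transcription factors, -0.56 to -0.30 for lipid droplets and 0.43 to 0.69 for oncofetal genes. The causes of the limma, sample and single-mouse moves were not tested.

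Calls with a minimum 2-fold change were also lost for Marco with the robust fit, the block and limma (adjusted p = 0.0555, 0.112 and 0.0660), for Ngp by DESeq2 and limma (0.0505 and 0.0577), for Orm1 with the knockout libraries alone, the block and limma (0.0748, 0.202 and 0.314), for Nkg7 with the knockout libraries alone (0.0538), and for Retnlg with the block and limma (0.0548 and 0.0711). Col1a1, which passed the adjusted p alone, did not in the robust fit or DESeq2 (0.0696 and 0.0533).

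Among single genes, signs turned only in those not called. Under total-count scaling the log2 differences were 0.0970 for Ccn1, 0.0760 for Cd44, 0.17 for Itgb1, 0.17 for Slc4a2 and 0.11 for Slc34a2, and limma gave 0.0159 for Slc34a2. With 1 mouse left out they ranged from -0.23 to 0.0816 for Cd44, -0.43 to 0.0359 for Elf3 and -0.11 to 0.0139 for Itgb1, all highest without 10-day mouse 2. They ranged from -0.0857 to 0.27 for Ccr2, -0.0134 to 0.35 for Tgfb1, -0.15 to 0.29 for Ly6c2 and -0.58 to 0.35 for Slc34a2.

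Same-numbered mice share only a number: their deviations correlated at -0.193 to 0.0833, and no mouse correlated best with its own number. With the replicate number as a block, 655 genes were called higher and 166 lower. The number of mice, 5 per group, and the separate experiments limit these comparisons, and genes near 3 counts in a library are least certain.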
